A study of Drosophila melanogaster with 2 samples.

Results

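The 9 genes described here belong to the epidermal growth factor (EGF) receptor pathway of Drosophila melanogaster: the ligand genes spi and vn, the ligand protease gene rho, the receptor gene Egfr, the nuclear effector genes pnt and aop, and the feedback inhibitor genes aos, sty and kek1. They were chosen by name for their place in the pathway, and all 9 were matched by symbol among 13945 protein-coding genes of the dm6 annotation. The assay was chromatin immunoprecipitation and sequencing of Hand, a basic helix-loop-helix transcription factor of the heart, its neighbouring pericardial cells and the visceral muscle. Per the labels, whole embryos of mixed sex, collected at 6 to 24 hours, carried a transgene with green fluorescent protein fused to the C-terminus of Hand, and the antibody was against the fluorescent protein. By the same labels both biological replicates, numbered 2 and 3, were of this one line. A control entered only the authors' peak calling. With 1 group of samples, no test between groups was possible. A whole-embryo library sums over all cell types, so a peak does not say in which cells it arose.

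In this pathway a ligand binds the receptor tyrosine kinase, which signals through Ras, Raf and a MAP kinase to the nucleus. There the kinase activates the ETS-domain activator Pointed (pnt) and removes the ETS-domain repressor Yan (aop), which competes for the same class of sites. Spitz (spi) is made as a membrane-bound precursor that the protease Rhomboid (rho) cleaves, whereas Vein (vn) is secreted without that step. Argos (aos), Sprouty (sty) and Kekkon 1 (kek1) are switched on by the pathway and dampen it. In the embryo the pathway patterns the ventral ectoderm and takes part in choosing muscle and heart progenitors.

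The sequences that follow are the 101 bp centred on the summits of the strongest peaks of the 5 genes with a thresholded peak, read from RefSeq's dm6 genome on the plus strand. They were chosen to show what lay under the signal. Capitals mark a general E-box (CANNTG), the class of word that Hand and its partners bind, and in the pnt window they mark a 17-bp direct repeat. The aos window is chr3L:16480512-16480612, with a CAAATG E-box.
aos intron: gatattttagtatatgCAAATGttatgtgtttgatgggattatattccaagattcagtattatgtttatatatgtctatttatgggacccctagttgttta
The pnt window is chr3R:23335704-23335804, with no E-box. A direct repeat of at least 15 bp was in 11 of the 3310 thresholded summit windows (0.332%), a feature looked for after this window had been seen.
pnt intron: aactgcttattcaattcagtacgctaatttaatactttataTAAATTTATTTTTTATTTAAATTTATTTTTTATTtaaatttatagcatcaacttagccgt
The spi window is chr2L:19575754-19575854, the aop window chr2L:2180202-2180302 and the sty window chr3L:3411908-3412008. None of the 3 held an E-box.
spi promoter: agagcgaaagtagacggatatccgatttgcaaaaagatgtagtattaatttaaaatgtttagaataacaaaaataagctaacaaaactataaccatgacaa
aop upstream: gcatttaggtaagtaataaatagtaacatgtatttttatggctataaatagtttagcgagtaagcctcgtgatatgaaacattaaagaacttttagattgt
sty intron: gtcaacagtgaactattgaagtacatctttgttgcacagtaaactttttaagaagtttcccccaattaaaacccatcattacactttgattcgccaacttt
Of these 5 windows, pnt had the most A or T, at 82.2%, and sty the least, at 65.3%. The windows of aos, spi and aop had 72.3% each.

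Hand-GFP peaks were at the transcription factor genes at the end of the pathway, at the inhibitors aos and sty and at the ligand gene spi, and no thresholded peak was at the receptor gene. A thresholded peak is one of the 3310 peaks kept by the authors' reproducibility threshold, and a gene was counted where one had its summit inside the gene or at most 2 kb beyond either end, by position alone. By this rule 5 of the 9 genes had a peak, against 25.7% of all protein-coding genes. These were spi with 2 peaks, pnt with 5, aop with 6, aos with 2 and sty with 1, which makes 16 in all. The genes vn, rho, Egfr and kek1 had none. Longer genes had peaks more often. Over 5 equal classes of gene length, from the shortest to the longest, the share of genes with a peak was 12.4%, 19.0%, 22.5%, 28.0% and 46.4%. The longest class held 7 of the 9 genes, of which 5 had a peak, and rho and kek1 were in the class below it. All 9 had an entry in the pooled list, which reached 74.4% of all genes. The authors labelled that list as peaks and background, the input of their reproducibility step. Its entries below the threshold are called peaks here, but they can be background, and which of them are was not tested. The strongest entry had a −log10 q-value of 2.52 at Egfr, 1.29 at vn, 0.963 at kek1 and 0.512 at rho.

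**Figure D1:**
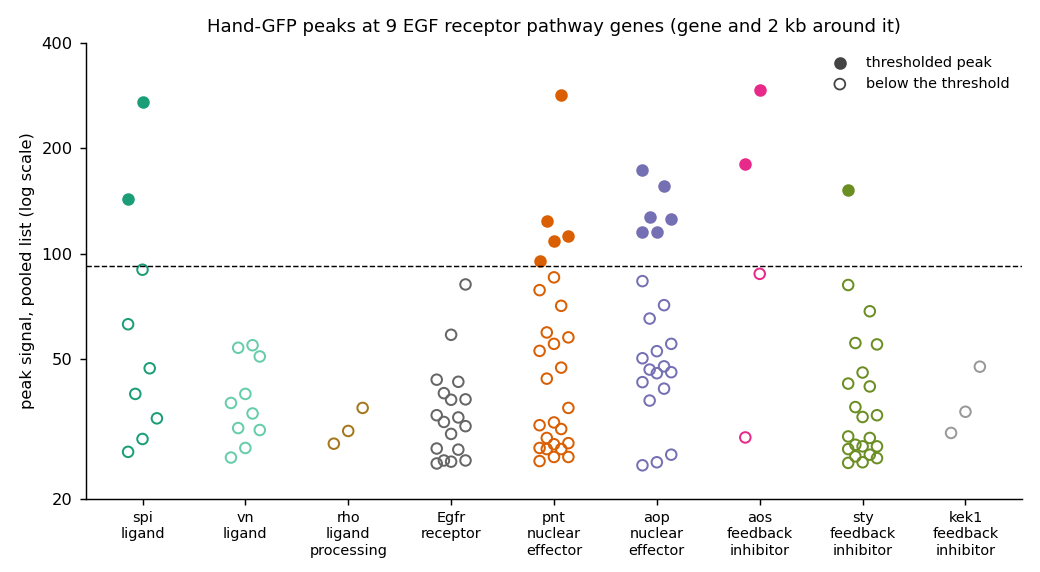
Signal of every peak of the pooled list in each gene or within 2 kb of it, on a log scale, with genes ordered by role. Filled points are thresholded peaks and open points entries below the threshold, which can be background. The dashed line is the lowest thresholded signal, 92.5. The strongest peaks of aos, pnt and spi lie between 270.2 and 294, while every point of vn, rho, Egfr and kek1 lies under the line.

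In strength the 16 peaks lay around the middle of the list. The signal of a peak is a value without a unit, set by the caller the authors used and not rescaled between lists, so levels are compared only within a list. Their median signal was 135, against 136 over all 3310 thresholded peaks, and 8 of the 16 lay above that median. The highest was 294, while the list reached 2061. The lowest thresholded signals among them were 95.5, 109 and 112, all at pnt. Just outside the threshold were peaks at spi with 90.0, aos with 87.6, pnt with 85.6, aop with 83.5, Egfr with 81.7 and sty with 81.4. The strongest peaks of vn, rho and kek1 were farther below the threshold, at 54.8, 36.3 and 47.6.

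One library needs care before the replicates are compared. In the 90 kb centred on Hand itself the list of replicate 2 held 4 peaks and that of replicate 3 held 36, and whether the replicate 2 library came from tagged embryos was not tested. The thresholded list was made by comparing the replicates, so this untested point applies to every thresholded peak, also where it is called a Hand-GFP peak. Without replicate 2, the 3310 strongest peaks of replicate 3 reached the same 5 of 9 genes, against 26.3% of all genes, with 16 summits. Without replicate 3, the 3310 strongest of replicate 2 also reached these 5 genes, against 24.5%, with 17 summits.

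Among the ligand genes, spi carried thresholded peaks at its internal start sites and vn carried none. The gene spi (FBgn0005672, chr2L:19567900-19577315, minus strand) has 3 annotated transcription start sites (TSS). Its strongest peak, at chr2L:19575586-19576021, had signal 270.2 and rank 474 of 3310, and its summit was 217 bp upstream of the TSS of transcript spi-RG. Replicate 2 gave 87.9 and replicate 3 gave 194 there. Its other peak, at chr2L:19572685-19573120, had signal 143 and a summit 293 bp upstream of the TSS of spi-RB and spi-RE, with 41.7 in replicate 2 and 100.3 in replicate 3. The outermost TSS of spi had only a peak of 62.9, below the threshold. Both spi peaks thus lay inside the gene, each before a different internal start site.

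The gene vn (FBgn0003984, chr3L:5813338-5845664, minus strand) is more than 3 times as long as spi, at 32327 bp against 9416 bp, yet none of its 10 pooled peaks was thresholded. Its strongest, at chr3L:5844102-5844537, had signal 54.8 and a summit in the 5′ untranslated region, with 19.1 in replicate 2 and 42.2 in replicate 3. The next, 53.9, was 15 bp downstream of its only TSS and had no replicate 2 summit within 100 bp. The nearest thresholded summit was 36087 bp from the gene. For rho (FBgn0004635, chr3L:1463811-1468944, plus strand) the pooled list held 3 peaks, the strongest with signal 36.3 and its summit 20 bp upstream of the TSS. Replicate 3 gave 26.6 there and replicate 2 had no summit within 100 bp, the nearest being 5671 bp away. The nearest thresholded summit to rho was 68300 bp from it. Thresholded peaks were thus at the gene of the ligand that needs cleavage and not at the gene of its protease. In the length class of rho 28.0% of genes had a thresholded peak, and in that of spi 46.4%, so having none was the commoner outcome for a gene like rho.

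The receptor gene Egfr (FBgn0003731, chr2R:21522420-21559977, plus strand) had no thresholded peak. Its 18 entries in the pooled list, over 37558 bp, were all below the threshold and can include background. The strongest, at chr2R:21522226-21522661, had signal 81.7 and rank 4152 in the pooled list of 30000, with its summit 24 bp downstream of the TSS of transcript Egfr-RA, in the 5′ untranslated region. It was present in both replicates, with 34.3 in replicate 2 and 46.8 in replicate 3. The next, 58.7, lay in an intron 2512 bp downstream of the TSS of Egfr-RB, with 26.6 in replicate 2 and 35.5 in replicate 3. Only these 2 of the 18 peaks had a summit within 100 bp in both replicates. The nearest thresholded summit was 14442 bp from the gene, with signal 120.2.

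The nuclear effector genes held 11 of the 16 thresholded peaks. Per kb of the gene with 2 kb on each side, thresholded peaks numbered 0.228 at aop and 0.0834 at pnt. They numbered 0.149 at spi, 0.116 at aos and 0.036 at sty, so pnt lay below spi and aos by this measure. The activator gene pnt (FBgn0003118, chr3R:23290231-23346167, minus strand) is the longest of the 9, at 55937 bp, and all 5 of its peaks were inside it. The strongest, at chr3R:23335536-23335971, had signal 283 and rank 441, with 107 in replicate 2 and 184 in replicate 3. Its summit was in an intron, 10413 bp downstream of the outermost TSS, that of pnt-RB. Peaks of 112 and 109 stood beside it, at 11135 bp and 13422 bp from that TSS, and one of 124 stood 19684 bp from it, so 4 of the 5 peaks were in the stretch between the first and the second start sites. The last, at chr3R:23295238-23295673 with signal 95.5, was 218 bp upstream of the innermost TSS, that of pnt-RC and pnt-RE, with 37.2 in replicate 2 and 55.3 in replicate 3. The outermost TSS had no pooled summit within 500 bp.

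The repressor gene aop (FBgn0000097, chr2L:2156484-2178754, minus strand) had 6 peaks over 22271 bp, more than any other of the 9 genes. At least 5 peaks were at 0.552% of all genes, whatever their length, and the share within the longest length class, which holds aop, was not computed. No peak of aop was as strong as the best of pnt, aos or spi. Its strongest, at chr2L:2180034-2180469 with signal 173, was 1498 bp upstream of the gene, and that of 156, at chr2L:2179350-2179785, was 814 bp upstream. These upstream peaks had 49.9 and 36.3 in replicate 2, and 128 and 127 in replicate 3. Peaks of 127, 126 and 115 were in introns. The remaining one, also with signal 115, was 49 bp upstream of the inner TSS, that of aop-RA and aop-RD, with 43.3 in replicate 2 and 55.0 in replicate 3. A peak of 83.5, below the threshold, was at the outer TSS.

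Among the feedback inhibitor genes, aos had the strongest peak of all 9 genes, sty had a single one and kek1 had none. The gene aos (FBgn0004569, chr3L:16470386-16483650, minus strand) codes for a secreted protein that binds Spitz. Its strongest peak, at chr3L:16480489-16480669, had signal 294 and rank 404, with 92.7 in replicate 2 and 197 in replicate 3, and was only 181 bp wide. Its summit was in an intron 3088 bp downstream of the TSS. The other peak, at chr3L:16483652-16484087 with signal 179.9, had its summit 220 bp upstream of the TSS. Replicate 3 gave 99.8 there, whereas the nearest replicate 2 summit was 113 bp away, just outside the 100 bp allowed. A second pooled peak of 87.6 overlapped it, with a summit 421 bp upstream, and there replicate 2 gave 73.9 and replicate 3 gave 50.6. Both replicates thus had a peak before the aos start site, with summits at different points. The gene aos lies on the opposite strand within CG33158 (chr3L:16419597-16496560, plus strand), so both aos peaks also count for that gene by position.

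The gene sty (FBgn0014388, chr3L:3401153-3424935, minus strand) codes for an intracellular inhibitor of receptor tyrosine kinase signalling. Its only thresholded peak, at chr3L:3411740-3412175, had signal 152 and rank 1370, with 66.0 in replicate 2 and 88.4 in replicate 3. The summit lay in an intron, 6003 bp downstream of the inner TSS, that of sty-RB. A further 21 pooled peaks at sty were below the threshold. The outer TSS, that of sty-RC, had no pooled summit within 500 bp. The gene kek1 (FBgn0015399, chr2L:12817000-12822787, minus strand) codes for a transmembrane protein that binds the receptor. It had 3 pooled peaks, the strongest of 47.6, with 17.5 in replicate 2 and 30.5 in replicate 3, lying beyond its 3′ end. Its nearest thresholded summit was 94887 bp from the gene, the farthest of the 9.

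**Figure D2:**
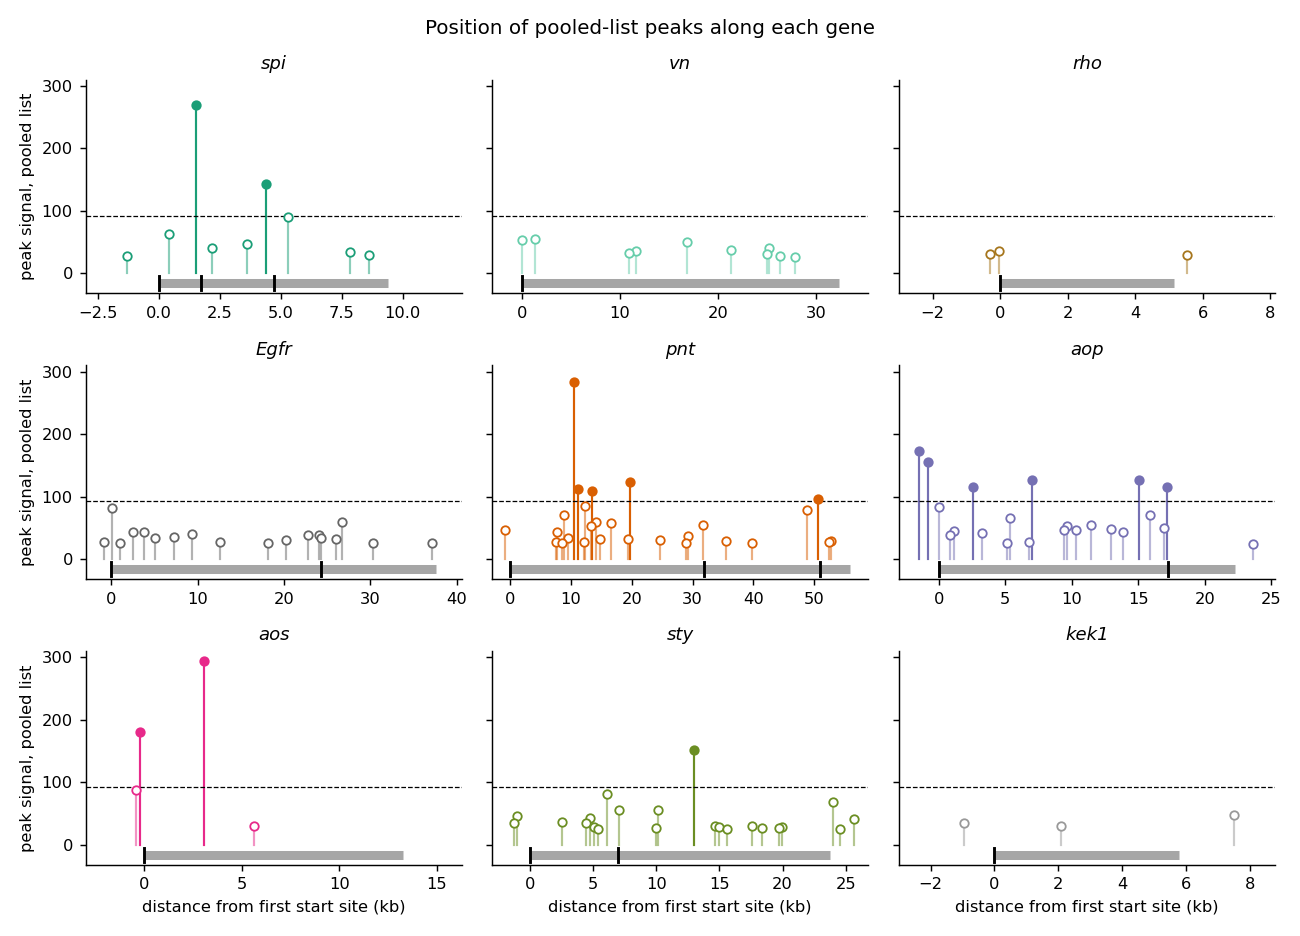
Signal of each pooled-list peak against the distance of its summit from the outermost start site, in kb along the direction of transcription. Grey bars are the genes, black ticks their annotated start sites, filled points thresholded peaks and the dashed line the lowest thresholded signal, 92.5. The tall peaks of spi stand beside internal ticks, those of pnt cluster 10413 to 19684 bp into the gene, and those of aop run from 1498 bp upstream to the inner tick.

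Most of the 16 summits were away from start sites. Of the 16, 9 (56.2%) were in introns, 5 (31.2%) within 500 bp of a TSS, 2 intergenic and 0 in exons. Over all thresholded summits the shares were 35.3% in introns, 49.6% at promoters, 13.7% intergenic and 1.45% in exons. The median distance to the nearest TSS was 2376 bp for the 16 summits, against 512 bp for all 3310. All 16 were at genes of the longest length class, whereas the 3310 were not limited by gene length. Location shares within that class were not computed, so how far gene length goes with these differences was not tested. The 5 promoter summits were at spi, pnt, aop and aos, and all 5 were upstream of the start, by 49 to 293 bp. In spi, pnt and aop, each with several start sites, the thresholded promoter peaks were at internal sites and none was at the outermost. A peak of 83.5 at the outermost aop site was just below the threshold. Shares for outermost and internal sites over all genes were not computed. Of the 16 annotated start sites of the 9 genes, 5 had a thresholded summit within 500 bp, against 12.4% of all start sites, and 13 had a pooled summit, against 48.8%.

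The peaks also lay closer to their own gene's start sites than to those of neighbours. For all 16 assignments the nearest TSS was one of the gene the peak was assigned to. Over the genome this held for 2894 of 5351 assignments (54.1%), because a summit within 2 kb of a gene is often nearer to another gene's start. A summit can be assigned to several genes but has a single nearest TSS, so the share over the genome could not reach 100%. It is therefore no like-for-like background for the 16, whose assignments to other genes, such as CG33158, were left out. Counting each summit only for the gene with the nearest TSS left the same number of genes, 5 of 9.

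Almost all of these peaks recurred in both replicates. For 15 of the 16, both replicates listed a summit at most 100 bp away, the exception being the peak upstream of aos in replicate 2, and the share over all thresholded peaks was 91.1%. The thresholded list was itself made by comparing the replicates, so this recurrence is partly built in. It does not show that the peaks came from tagged Hand, since the tag in replicate 2 was not tested. Of the 16, 14 matched a peak among the 3310 strongest of replicate 2, and likewise 14 among those of replicate 3. Replicate 2 lacked the aop peak 814 bp upstream and that before aos, and replicate 3 lacked the promoter peaks of pnt and aop. Because the lists differ in scale, the ratio of the replicate 3 signal to the replicate 2 signal can be read only against its median over all matched peaks. That median ratio was 1.81 at the 15 peaks, against 1.83 over 3015 thresholded peaks. Ratios ranged from 1.19 at the aop peak 2607 bp into the gene to 3.49 at the aop peak 814 bp upstream of it. The lowest and the highest ratio were thus both at aop.

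**Figure D3:**
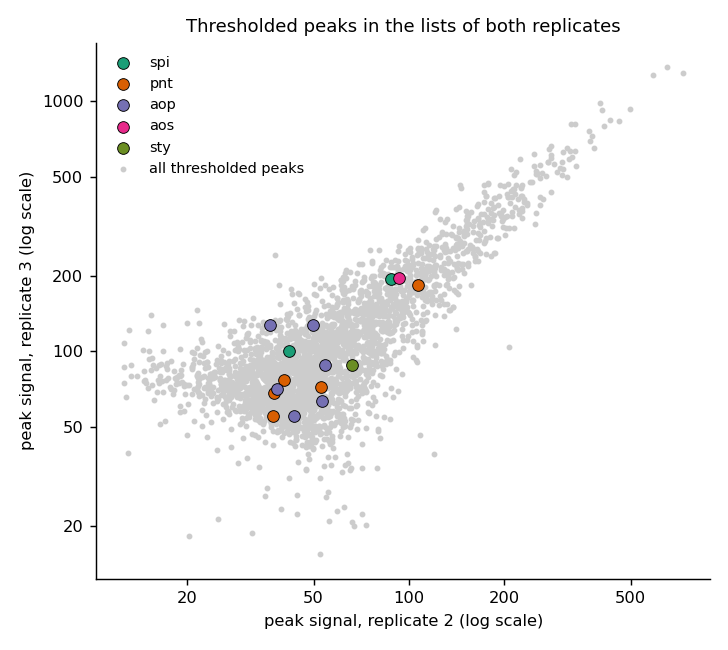
Signal in replicate 3 against signal in replicate 2, both on log scales, for thresholded peaks that both lists matched to within 100 bp. Grey points are all 3015 such peaks and coloured points the 15 at the pathway genes. The strongest peaks of aos, pnt and spi sit together, at 87.9 to 107 in replicate 2 and 184 to 197 in replicate 3, and the lowest and highest ratios, 1.19 and 3.49, are both at aop.

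Over all pooled peaks, thresholded and weaker together, aop, sty and spi had the highest densities of the 9 genes. The pooled list held 118 peaks at the 9 genes, of which 102 were below the threshold, and overlapping peaks merged into 95 regions. Counted per kb of the gene with its flanks, aop had 0.837 pooled peaks, sty 0.792 and spi 0.671. At least as high a density was found in 4.60% of all genes for aop, in 5.83% for sty and in 9.79% for spi. Egfr had 0.433 and pnt 0.450, while rho had 0.328, kek1 0.306, vn 0.275 and aos 0.232. The median over the 9 genes was 0.433 per kb, against 0.226 over all genes and 0.266 in the longest length class. In replicate 2 the 9 genes had a median of 0.384 per kb against 0.224 over all genes, and in replicate 3 a median of 0.457 against 0.230. The gene aos, with the strongest peak, thus had the lowest density. The high density of sty came from 22 pooled peaks, of which 21 were below the threshold. These densities count peaks that can be background, so they are not densities of bound sites.

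About 1 in 4 of the peaks below the threshold was in both replicates. Of the 102 below the threshold, 27 (26.5%) had a summit within 100 bp in both replicates, against 30.1% of all pooled peaks below the threshold. For pnt this was 7 of 22, for aop 7 of 16, for sty 4 of 21, for spi 2 of 7, for Egfr 2 of 18, for vn 2 of 10, for kek1 2 of 3, for aos 1 of 2 and for rho 0 of 3. By location 72 of the 102 (70.6%) were in introns, against 42.9% of all such peaks. The latter share was not limited by gene length, whereas 7 of the 9 genes were in the longest length class. The median signal of the 102 was 35.2, against 35.1 over all pooled peaks below the threshold, and their deposited −log10 q-value ran from 0.187 to 2.89.

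**Figure D4:**
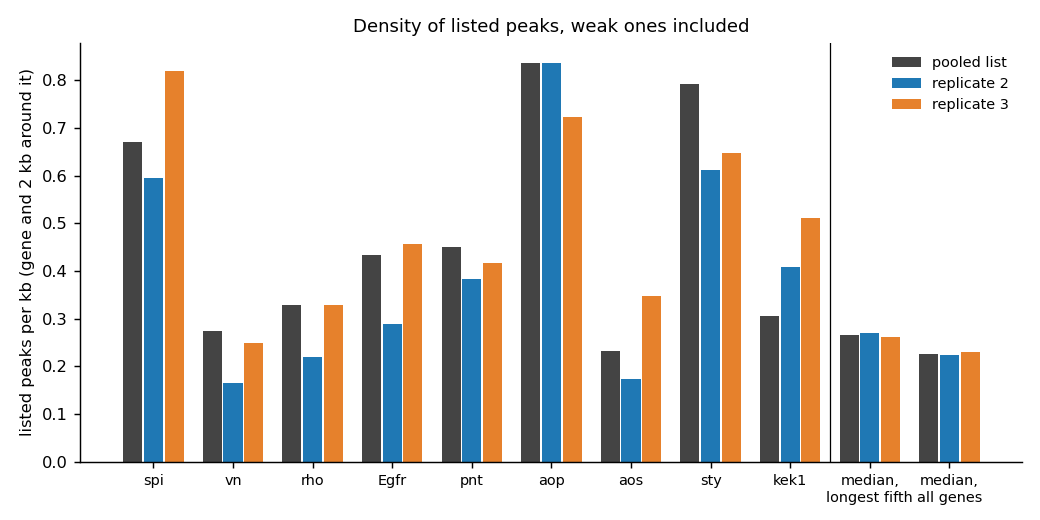
Listed peaks per kb of each gene with 2 kb on each side, for the pooled list and each replicate, beside the medians over genes of the longest length class and over all genes. The bars of aop, sty and spi are the tallest, and vn and aos are the lowest in the pooled list at 0.275 and 0.232.

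The sequence under the 16 summits was described by its base composition and by short words. The windows had a median of 71.8% A or T, against 66.3% over all thresholded windows, with a range from 32.7% to 85.1%. The extremes were both promoter peaks, and they are shown here for their contrast. The aop window is chr2L:2161526-2161626, the richest of the 16 in G and C. The aos window is chr3L:16483820-16483920, the richest in A and T.
aop inner promoter: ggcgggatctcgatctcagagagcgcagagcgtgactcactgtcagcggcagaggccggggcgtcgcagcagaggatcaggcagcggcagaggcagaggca
aos promoter: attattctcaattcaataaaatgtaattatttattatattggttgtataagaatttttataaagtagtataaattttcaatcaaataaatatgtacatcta
The E-box CANNTG was in 4 of the 16 windows, against 34.7% of all 3310 windows and 41.2% of the windows of the whole pooled list. Beside the aos intron window above, it was in 2 pnt windows and 1 aop window, and those of the peaks with signal 109 (pnt, chr3R:23332695-23332795) and 127 (aop, chr2L:2163621-2163721) are shown with it in capitals.
pnt CACATG: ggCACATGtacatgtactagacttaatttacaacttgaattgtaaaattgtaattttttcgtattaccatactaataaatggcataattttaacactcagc
aop CATATG: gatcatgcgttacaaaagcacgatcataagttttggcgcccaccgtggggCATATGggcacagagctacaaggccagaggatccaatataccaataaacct
In all, 8 words were sought on both strands within 50 bp of each summit. CATCTG, the E-box of Hand with its partner Daughterless and a subset of CANNTG, was in 0 of 16 windows. It was in 2.66% of all thresholded windows and 4.24% of the windows of the whole pooled list. Both E-box words were thus less frequent in the thresholded windows than over the whole pooled list. The ETS words ACCGGAA and CCGGAA, of which the shorter lies within the longer, are of the class that Pointed and Yan bind, and both were in 0 of 16 (1.15% and 2.57% of all). The forkhead word GTAAACA was in 0 (3.90% of all) and the DREF word TATCGATA in 0 (0.997%). The GATA word AGATAA was in 1 window, at aop (8.16%), and the GAGA word GAGAGA in 2, at aop and pnt (6.13%). With 16 windows, shares of this size would give few or no matches, so these counts say only which letters were present.

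Other genes of the pathway, listed by role, also had peaks. By the same rule, 16 of 28 further genes (57.1%) had a thresholded peak, against 25.7% of all genes, and 17 of the 28 were in the longest length class, of which 11 had a peak. Without replicate 2 the strongest peaks of replicate 3 also reached 16, and without replicate 3 those of replicate 2 reached 15. For 11 of these 16 genes at least 1 summit was nearest to the gene's own TSS.

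In the kinase cascade, Raf, the MAP kinase kinase kinase, had 9 thresholded peaks, the most of any gene in either list. They were led by one of signal 579 in an intron (190.4 in replicate 2 and 385 in replicate 3). Of the 9, 6 were nearest to a TSS of Raf, while the next strongest, 469, was 306 bp from that of CG2865. The adaptor gene drk had 2 peaks, the stronger of 184 being nearest to the TSS of mars. The adaptor gene dos had 2 (182), the stronger dos peak being 18 bp from the TSS of RpL8. The scaffold gene cnk had peaks of 491 and 249.8, both nearest to the TSS of l(2)k01209, and the strongest peak of the adaptor gene Shc, with signal 376, was nearest to that of Atat. The genes Sos, Ras85D, Dsor1, rl, ksr and csw had none.

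Of the inhibitor genes, 5 of 6 had a peak, against 25.7% of all genes and 46.4% of the longest length class, which held 5 of the 6. Mkp3, a MAP kinase phosphatase gene, had 4, led by 447 at 403 bp upstream of its TSS (165 in replicate 2 and 298 in replicate 3). The gene edl, whose product binds both ETS factors, had 2 (strongest 252), and Gap1, a Ras GTPase-activating protein gene now called RasGAP1, had 2 (221). The cell adhesion genes ed and fred had 4 and 1 (strongest 157 and 114), all in introns, and Cbl had none. Of the 4 at ed, only 1 was nearest to its own TSS, and the fred peak was nearest to that of Fpgs2. The repressor gene cic had 3 peaks (strongest 249). Among ligand genes, Krn had 2 (126), both nearest to the TSS of CG7484, and grk had none. Of the ligand-processing genes, S (Star), which carries Spitz to the protease, had 4 (185), and the rhomboid-family genes ru and stet had none, like rho. Of the kek1 paralogs, kek2 had 1 peak (107), kek5 had 3 (168) and kek6 had 2 (178), while kek3 and kek4 had none. The kek2 peak was nearest to the TSS of spag4 and the strongest kek5 peak to that of narya.

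**Figure D5:**
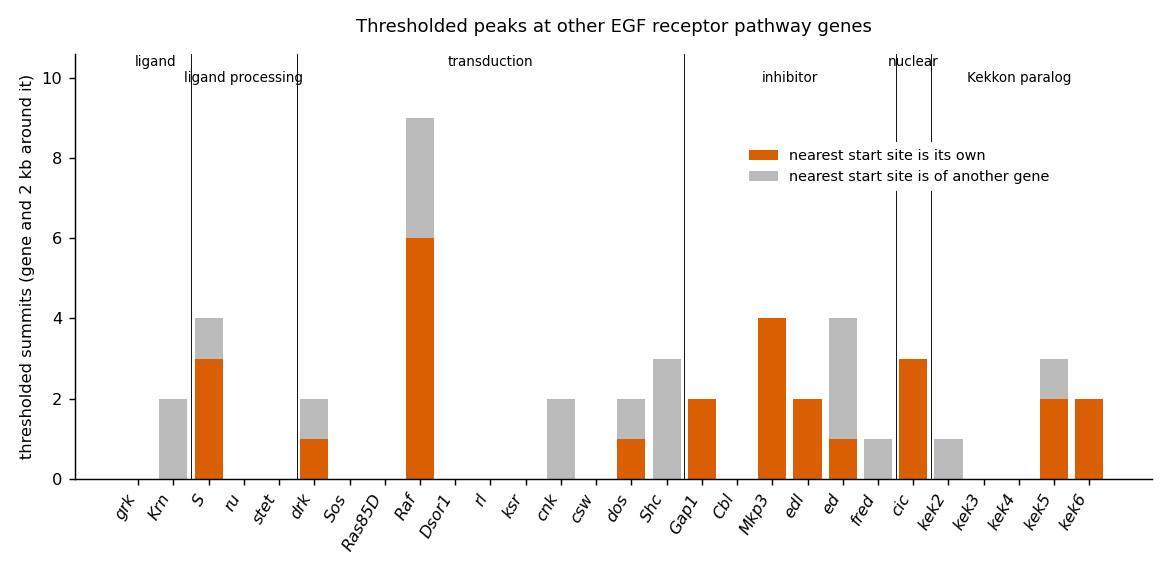
Thresholded summits in each of 28 other pathway genes or within 2 kb, ordered by role. Orange parts are summits whose nearest start site belongs to the gene and grey parts those nearest to another gene's start. The bars of Krn, cnk, Shc, fred and kek2 are all grey and those of Mkp3, edl, Gap1, cic and kek6 all orange.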

How the data were processed

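The values are peak lists from chromatin immunoprecipitation libraries, with fragments of 200 to 800 bp per the labels. Per the deposited file listings, peaks were called against a control alignment for each replicate and for the replicates pooled, 30000 peaks a list, and an IDR (reproducibility) step then gave the thresholded peaks. These were the 3310 strongest of the pooled list. The deposited signal is the peak caller's value, and the authors' q-value stands as −log10. The read depth, the IDR threshold and the programs used for alignment and peak calling are not given in the sources, so no counting error can be stated. The replicates' lists had 0 peaks in common in both position and signal. Lists on dm3 were not used.

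Genes and start sites were those of protein-coding genes in Ensembl release 115 on 6 chromosome arms, and sequence came from the RefSeq dm6 genome. Gap1 was matched through its current symbol. A summit was classed, in this order, as promoter (500 bp or less from a start site), exon, intron or intergenic. Replicate summits matched at up to 100 bp. Densities used the gene with 2 kb on each side. All 9 genes were named, and the other pathway genes by a fixed list. Members and lists were chosen with earlier results of these data known, and no test of the list was run. Alternatives were other flanks, the nearest start site, stronger or weaker peaks, each replicate alone, and other matching distances, promoter limits and sequence windows. On simulated lists, 200 of 200 genes with a summit planted at their midpoint were found. That checked the counting rule by position and not the detection of peaks. Programs were Python 3.11.15, numpy 2.4.6, pandas 2.3.3 and matplotlib 3.10.9.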

Additional observations from a re-analysis of the deposited data

How the results depend on the processing

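The count of 5 genes with a peak was the same with the gene body alone, with 5 kb, by nearest start site, in the stronger 50% of thresholded peaks and in each replicate, and rose to 9 in the whole pooled list, where 74.4% of all genes had one. Of the other pathway genes, 26 of 28 had one there. The 16 summits became 8 in that stronger part and 118 in the whole pooled list, by construction. Promoter summits fell to 1 with 200 bp in place of 500 bp. Word counts changed with the window, as its length did. With 25 bp on each side CANNTG was in 2 windows (18.7% of all thresholded windows) and GAGAGA in 0 (2.90%). With 100 bp CANNTG was in 10 of 16 windows (62.5%, against 1985 of all 3310 windows), GAGAGA in 6 (37.5%, against 14.4% of all) and AGATAA in 2 (12.5%, against 14.5%). Both ETS words and the forkhead word were then in 1 each (1.96% and 4.62% of all for the longer and the shorter ETS word, 6.83% for forkhead). In all, 33 of 46 alternative counts stayed within 1.5 times. Strongest signals moved by more than the spread between replicates in 18 of 35 alternatives, chiefly in single-replicate lists, whose scale is lower. Levels are not comparable between lists, and that spread includes a difference in scale, so these moves say nothing about peak strength. No paired analysis was possible because there was 1 group. Depth is unknown, so a gene without a listed peak is not shown to be unbound.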
